A study of Mus musculus with 4 samples.

Results

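Olfactory receptor genes on mouse chromosome 7 were examined for binding of Wapal, the factor that releases cohesin from chromatin, in embryonic stem cells (ESCs). The members were the protein-coding genes of chromosome 7 whose symbol begins with Olfr in the GENCODE M1 annotation of the mm9 genome build. This rule found 240 genes among 2072 protein-coding genes of the chromosome and among 1113 protein-coding Olfr genes of the genome, and it left out 21 Olfr pseudogenes. Of the 240, 7 carry a pseudogene suffix in their symbol although they are annotated as protein-coding. Genes with neighbours within 500 kb were grouped into 8 clusters, 6 of which held at least 5 genes. The widest gap between neighbours inside a cluster was 356.9 kb and the narrowest gap between clusters was 666.2 kb.

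Tagged Wapal was recovered by biotin-streptavidin ChIP-seq (bioChIP-seq) from 129SVJ-derived ESCs that carry the bacterial biotin ligase BirA. The samples were 2 independently derived clones expressing Flag/Bio (FB) tagged Wapal, 1 ESC line expressing BirA without a tagged protein as control, and 1 input of sheared genomic DNA that was not pulled down. Each FB Wapal line is a clone that expresses the tagged protein from a vector. The regions of both clones were deposited as 1 joined list, and those of the BirA line as another, without the reads behind each region, so the precision of a single site and the spread between the clones could not be computed from them. All intervals are 95% intervals and cover counting error only.

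The FB Wapal list held 8497 regions, of which 174 overlapped a BirA region by at least 1 bp and were removed. Of the 8323 sites that remained, 471 lay on chromosome 7, where 6 regions had been removed. Of the 10 BirA regions on chromosome 7, none lay inside an Olfr cluster and 1, with a score of 54.3, lay 88.7 kb from the sixth cluster. Each site carries a MACS score, which is the negative log10 of the p-value against input multiplied by 10. Sites were placed by their centre as inside a cluster, at an edge (outside a cluster but within 100 kb of it) or on the rest of the chromosome.

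Olfactory receptors are G protein-coupled receptors that bind odorants on the cilia of olfactory sensory neurons. Their genes stand in tandem arrays, each with a short coding sequence in a single exon, and each sensory neuron settles on the expression of a single receptor gene. Expression of the Olfr genes in these ESCs was not examined here. Cohesin rings hold chromatin loops and sister chromatids, they collect where the zinc finger protein CTCF is bound, and Wapal opens them and takes them off chromatin. The largest Olfr cluster of chromosome 7 holds the class I receptors, the family related to the receptors of fish, and it encloses the beta-globin genes.

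Of the 471 Wapal sites on chromosome 7, 7 lay inside the Olfr clusters. The sequence around the best match to the CTCF core motif, the part of the CTCF binding site closest to invariant, is shown for these sites because they are all the called regions that the clusters held. Signal below the threshold of the caller is not in the list, whose lowest score is 50. A match was searched on both strands over the 12 bases of the motif with up to 2 mismatches, and the match stands in capitals with 15 bases of mm9 on each side, written 5′ to 3′ on the strand of the motif. Each site is named by its nearest Olfr gene, followed by the position of the bases printed.
Olfr572 (chr7:110068317-110068358, minus strand): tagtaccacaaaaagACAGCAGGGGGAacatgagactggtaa
Olfr586 (chr7:110267807-110267848, plus strand): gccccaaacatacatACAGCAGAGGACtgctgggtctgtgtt
Olfr633 (chr7:111091442-111091483, minus strand): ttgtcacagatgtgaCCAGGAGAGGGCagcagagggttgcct
Olfr649 (chr7:111348489-111348530, plus strand): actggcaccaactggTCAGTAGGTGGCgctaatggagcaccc
Olfr655 (chr7:111751873-111751914, minus strand): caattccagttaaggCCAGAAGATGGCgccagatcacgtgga
Olfr713 (chr7:114189504-114189545, minus strand): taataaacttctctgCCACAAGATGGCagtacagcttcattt
Olfr503 (chr7:115685975-115686016, minus strand): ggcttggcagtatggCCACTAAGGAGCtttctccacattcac
None of these matches was exact. The match had 1 mismatch at the sites near Olfr633, Olfr649, Olfr655 and Olfr713, and 2 mismatches at the other 3.

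At the edges of the clusters 12 sites were found, and 6 of them held an exact match, which is printed. Of the others, which are not printed, 3 had a best match of 1 mismatch and 3 of 2 mismatches, as the sites inside had. The edge sequences below were therefore picked for their match and are not a like comparison with the sites inside.
Olfr1344 edge (chr7:6387447-6387488, plus strand): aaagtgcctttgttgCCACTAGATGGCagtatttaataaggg
Olfr291 edge (chr7:91927829-91927870, minus strand): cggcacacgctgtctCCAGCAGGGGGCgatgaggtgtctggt
Olfr310 edge (chr7:93360045-93360086, minus strand): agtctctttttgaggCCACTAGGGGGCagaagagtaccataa
Olfr467 outer edge (chr7:114923325-114923366, minus strand): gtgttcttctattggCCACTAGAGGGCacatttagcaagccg
Olfr467 inner edge (chr7:114931915-114931956, minus strand): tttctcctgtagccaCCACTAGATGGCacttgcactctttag
Olfr519 edge (chr7:116077651-116077692, minus strand): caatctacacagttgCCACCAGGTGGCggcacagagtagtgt
A match in the sequence is a description of these letters and does not show that CTCF was bound in these cells.

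Wapal sites were sparse inside the Olfr clusters and frequent just outside them. The clusters held 7 sites in 5.64 Mb of sequenced bases, a density of 1.24 per Mb (exact Poisson interval 0.499 to 2.56). The edges held 12 sites in 1.60 Mb, or 7.50 per Mb (3.88 to 13.1). The rest of chromosome 7 held 452 sites in 134.6 Mb, or 3.36 per Mb (3.06 to 3.68). The density inside was therefore 0.370 times that of the rest (exact conditional interval 0.148 to 0.768), and at the density of the rest 18.9 sites would have been inside. The density at the edges was 2.23 times that of the rest (1.15 to 3.94).

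The low density inside stood beside a low GC content. The clusters had 39.4% GC, the edges 42.3% and the rest of the chromosome 43.2%. When the rest was limited to windows of 100 kb with a GC content of 38 to 41%, 347 windows with a mean GC of 39.6% held 48 sites, or 1.39 per Mb (1.03 to 1.85). Against these windows the density inside the clusters was 0.890 times as high, with an interval of 0.340 to 1.98. Of these windows, 77 overlapped arrays of vomeronasal receptor genes (Vmn1r and Vmn2r), and 69.6% of the 49-base windows in the 347 had a single copy in mm9, against 81.4% in the Olfr clusters. Without those 77 windows, the other 270 held the same 48 sites at 1.79 per Mb, and the ratio was 0.692 (0.264 to 1.54). Per Mb of single-copy windows the ratio was 0.761 (0.291 to 1.69) against all 347 windows and 0.661 (0.252 to 1.47) against the 270. All 4 intervals include both 1 and the ratio of 0.370 against the whole rest, so at this number of sites a difference from windows of like GC was not detectable. The edges, set beside 326 windows with a GC content of 41 to 44% and a mean of 42.4%, had 2.51 times their density of 2.99 per Mb (interval of the ratio 1.25 to 4.58).

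The CTCF core motif was also less frequent inside the clusters. Exact matches numbered 19 inside (3.37 per Mb), 17 at the edges (10.6 per Mb) and 771 on the rest (5.73 per Mb). With up to 1 mismatch the densities were 66.1, 109 and 99.5 per Mb. Counted per motif with up to 1 mismatch, the clusters had 1.88 sites per 100 motifs, the edges 6.90 and the rest 3.38. The ratio of the clusters to the rest was then 0.556 (0.222 to 1.16), and that of the edges to the rest 2.04 (1.05 to 3.61).

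Gene density went the other way. The clusters held 48.1 protein-coding transcription start sites (TSSs) per Mb, the edges 21.9 and the rest 13.1. Windows of the rest with at least 4 protein-coding TSSs held 5.63 sites per Mb, and the clusters had 0.2204 times that density (0.0857 to 0.477). Windows with at least 2 such TSSs held 4.98 sites per Mb, and the edges had 1.51 times that density (0.767 to 2.69), an interval that includes 1. The windows by GC and by genes, the count per motif and the values without the largest cluster were chosen after the data were seen, and the part that GC, motifs or genes have in the site densities was not tested.

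The authors kept only uniquely aligned reads, so a site could be called only where reads can be placed uniquely. The part of this in the densities was not tested. Of windows of 49 bases, 81.4% had a single copy in mm9 inside the clusters, 91.5% at the edges and 83.6% on the rest. Olfr gene bodies themselves were 88.1% unique and the remaining bases of the clusters 80.9%. Per Mb of unique windows the ratio of the clusters to the rest was 0.380 (0.152 to 0.789), against 0.370 per Mb of sequenced bases. Only exact copies were counted, whereas the aligner tolerated mismatches, and the ESCs were 129SVJ-derived while mm9 is C57BL/6J, so copies that differ at a few bases and changes of copy number between the strains are not covered.

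Density was traced outwards from the clusters. From 100 to 250 kb beyond a cluster 18 sites gave 7.51 per Mb (4.45 to 11.9), a value close to that of the first 100 kb. From 250 to 500 kb the density was 3.55 per Mb (1.89 to 6.06), and in the 3 wider bins beyond it lay between 3.21 and 3.89 per Mb. The last edge site stood 98.9 kb from its cluster and the next site beyond the edges 100.7 kb away, so the limit of 100 kb falls within the stretch of high density.

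**Figure D1:**
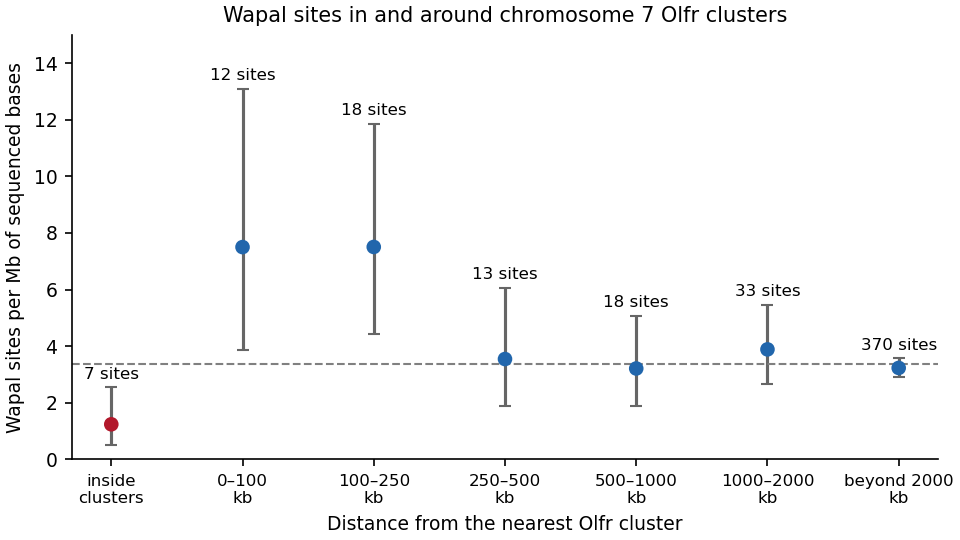
Density of Wapal sites (sites per Mb of sequenced bases, y axis) inside the chromosome 7 Olfr clusters and in bins of distance from the nearest cluster (x axis, kb). Points are densities, bars exact 95% Poisson intervals for counting error, and the dashed line is the density of the rest of the chromosome, 3.36 per Mb. The point for the clusters, at 1.24 per Mb, lies lowest, and both bins up to 250 kb lie near 7.5 per Mb.

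The largest cluster held most of the genes and of the sites. It spanned chr7:109625287-112517869, from Olfr543 to Olfr692, and held 129 of the 240 genes (53.8%) and 5 of the 7 sites. Its density was 1.73 per Mb (0.561 to 4.03), or 0.515 times that of the rest (0.166 to 1.21). The other 7 clusters with 111 genes held 2 sites in 2.75 Mb, or 0.728 per Mb (0.0882 to 2.63) and 0.217 times the rest (0.0262 to 0.788). The cluster of 25 genes from Olfr693 to Olfr716 (chr7:113821048-114291843) held 1 site. The cluster of 40 genes from Olfr467 to Olfr519 (chr7:114958094-116037934) held 1 site.

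No site was found in 5 clusters, which together held 46 genes in 1.197 Mb. These were the 8 genes from Olfr1344 to Olfr1350 (chr7:6392547-6523630), the 15 genes from Olfr310 to Olfr292 (chr7:93417240-93843894), the 19 genes from Olfr522 to Olfr541 (chr7:147347838-147891166) and 2 pairs of genes. At the density of the rest 4.02 sites would lie in this length, and a count of 0 allows up to 2.51 per Mb (taken as 3 counts, as for every stretch without a site). At this number of sites a lower density in any of these clusters alone was not detectable.

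Every cluster had at least 1 site within 100 kb, and 10 of the 16 cluster ends had 1 or more. On the rest of the chromosome 26.5% of 1345 windows of 100 kb held a site, and 39.0% of the 423 windows with at least 2 protein-coding TSSs. The cluster from Olfr1344 to Olfr1350 was closely framed, with a site 4.64 kb before Olfr1344 and another 15.3 kb beyond Olfr1350. The cluster from Olfr467 to Olfr519 had its nearest sites 25.9 and 39.4 kb away. The largest cluster had a site 58.7 kb before Olfr543 and 108 kb beyond Olfr692. The cluster from Olfr310 to Olfr292 had a site 56.8 kb on one side and none for 415 kb on the other. The cluster from Olfr693 to Olfr716 had its nearest site 854 kb away on one side and 68.4 kb on the other, and that from Olfr522 to Olfr541 had sites 82.6 and 100.3 kb away.

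The clusters of at least 5 genes were bordered by genes of many kinds. Zfp28 and Zim1, both of zinc finger proteins, lay nearest to the first cluster. Vmn2r76, a vomeronasal receptor gene, and Folh1, the gene of folate hydrolase, bordered the cluster that begins with Olfr310. The largest cluster lay between Rrm1, the large subunit of ribonucleotide reductase, and Gm5901. Gm1966 and Nlrp14 bordered the cluster that begins with Olfr693, and Ovch2 and Nlrp10 the cluster that begins with Olfr467. Sprn, a relative of the prion protein gene, and Cyp2e1, an ethanol-oxidising cytochrome P450, bordered the cluster that begins with Olfr522.

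The 7 sites inside the clusters were of ordinary score. Their scores were 70.3 near Olfr572, 64.6 near Olfr586, 72.7 near Olfr633, 87.5 near Olfr649, 109.3 near Olfr655, 58.4 near Olfr713 and 92.5 near Olfr503. The median was 72.7, against 76.4 at the edges (58.4 to 181.5) and 76.1 on the rest (50.4 to 414.9). The site near Olfr655, at chr7:111751554-111752032, had the highest score inside and ranked 118 of the 471 sites of the chromosome, and 3 of the 7 scored above the median of the chromosome, 76.1. A score of at least 100 was reached by 1 of 7 sites inside, 4 of 12 at the edges and 140 of 452 on the rest (31.0%). The median width was 580 bp inside, 754 bp at the edges and 823 bp on the rest.

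All 7 sites inside lay between genes, and each was nearer to the TSS of an Olfr gene than to that of any other protein-coding gene. The clusters begin and end at Olfr genes, and 240 of their 271 protein-coding TSSs are of Olfr genes, so this nearness is largely set by the rule. The share of all positions inside that lie between genes or nearest to an Olfr TSS is not given here. The site at chr7:115685904-115686346 had its centre 1.92 kb from the TSS of Olfr503, the shortest distance. Those at chr7:110267788-110268360, chr7:111091120-111091817 and chr7:111348090-111348932 lay 3.22, 3.61 and 4.04 kb from Olfr586, Olfr633 and Olfr649. The site at chr7:110067979-110068558 lay 7.88 kb from Olfr572, that near Olfr655 6.10 kb, and the site at chr7:114189156-114189904 lay 9.88 kb from Olfr713. The median distance from the centre to the nearest annotated TSS was 4.04 kb inside, 13.4 kb at the edges and 14.03 kb on the rest. Positions taken every 1 kb along the sequence had a median of 4.71 kb inside the clusters, 8.09 kb at the edges and 19.6 kb on the rest, so TSSs stood close to any position inside a cluster. Unique windows made up 96.6 to 100% of each of the 7 sites.

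The edge sites lay outside the clusters, where by the rule no protein-coding Olfr gene stands. Of the 12, 8 lay between genes and 4 in introns, and 3 were nearer to an Olfr TSS than to another protein-coding one. The contrast of that last count with the sites inside is largely set by the rule. The highest score, 181.5, belonged to the site at chr7:93359706-93360439 outside Olfr310, 34.6 kb from the TSS of Vmn2r76, and it ranked 27 on the chromosome. The site at chr7:116077296-116078434 beyond Olfr519, with a score of 161.9, lay 0.066 kb from the TSS of Eif3f, a subunit gene of a translation initiation factor. The site at chr7:109565812-109566581 before the largest cluster, with a score of 142.2, lay in an intron of Stim1, the gene of a calcium sensor of the endoplasmic reticulum, 24.0 kb from the TSS of Rrm1. The site at chr7:6387083-6387911 before Olfr1344, with a score of 140.3, lay in an intron of Gm16532, a protein-coding gene, and the nearest TSS was that of Olfr1344 at 5.05 kb. The fifth, at chr7:114360223-114360896 beyond Olfr716, had a score of 86.3 and lay 7.60 kb from Rbmxl2, an RNA-binding protein gene.

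The exact CTCF core motifs inside the clusters were not in Wapal sites. Of 19 exact motifs inside, 0 lay in a site (Wilson interval 0 to 16.8%), and the nearest stood 31.0 kb from a site. At the edges 6 of 17 lay in a site (35.3%, interval 17.3 to 58.7%), and on the rest 126 of 771 (16.3%, 13.9 to 19.1%). The intervals of the clusters and the rest overlap. With up to 1 mismatch, 4 of 373 motifs inside (1.07%, 0.418 to 2.72%), 11 of 174 at the edges (6.32%, 3.57 to 10.96%) and 403 of 13394 on the rest (3.01%, 2.73 to 3.31%) lay in a site.

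Counted by site, 4 of the 7 inside held a motif with up to 1 mismatch (57.1%, 25.1 to 84.2%), against 9 of 12 at the edges and 346 of 452 on the rest (76.5%). An exact motif was held by 0 of 7 inside (0 to 35.4%), 6 of 12 at the edges (25.4 to 74.6%) and 124 on the rest (27.4%, 23.5 to 31.7%). The interval inside and that at the edges both overlap that of the rest. With up to 2 mismatches every site inside and at the edges held a match, and so did 441 of 452 on the rest. The density of matches with 2 mismatches along the sequence is not given here, so these shares have no background beside them.

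**Figure D2:**
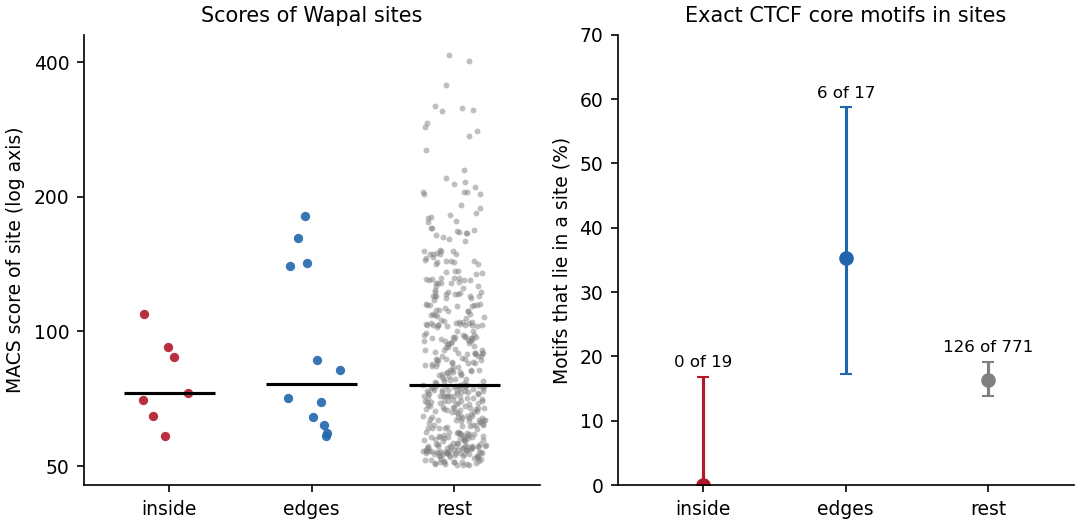
Left, MACS score of each Wapal site of chromosome 7 (log axis), inside the Olfr clusters, at their edges and on the rest, with the median as a bar. Right, share of exact CTCF core motifs that lie in a site (%), with the 95% Wilson interval and the counts. Medians lie between 72.7 and 76.4, and the shares of motifs are 0% inside, 35.3% at the edges and 16.3% on the rest.

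Most Olfr genes stood far from any Wapal site. The distance from the TSS to the nearest site had a median of 156.2 kb (quartiles 67.2 and 274.2 kb, range 1.70 to 446.8 kb), against 77.9 kb (30.7 and 182.8 kb) for the 1832 other protein-coding genes. A site lay within 10 kb of the TSS for 10 of 240 Olfr genes (4.17%, 2.28 to 7.50%) and for 148 of 1832 other genes (8.08%, 6.92 to 9.42%), where 7.63% of all protein-coding genes had one. Within 50 kb the counts were 43 Olfr genes (17.9%, 13.6 to 23.3%) and 679 others (37.1%, 34.9 to 39.3%), with 34.8% for all protein-coding genes. Within 2 kb there were 1 Olfr gene (0.417%, 0.0736 to 2.32%) and 32 others (1.75%, 1.24 to 2.455%), with 1.59% for all protein-coding genes. The intervals at 2 kb overlap. Neighbouring genes share the same sites, so the genes are not independent of each other.

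The 10 Olfr genes within 10 kb of a site were Olfr503 at 1.70 kb, Olfr586 at 2.94 kb, Olfr633 at 3.27 kb, Olfr649 at 3.62 kb, Olfr1344 at 4.64 kb, Olfr632 at 5.22 kb, Olfr655 at 5.86 kb, Olfr572 at 7.59 kb, Olfr713 at 9.51 kb and Olfr571 at 9.63 kb, measured to the edge of the site. Of these, Olfr632 and Olfr633 flanked the same site, as did Olfr571 and Olfr572, and Olfr1344 was reached by a site outside its cluster. The genes farthest from a site were Olfr293 at 446.8 kb and Olfr292 at 422.1 kb in the cluster that begins with Olfr310, and Olfr676, Olfr675 and Olfr677 at 431.7, 421.4 and 421.3 kb in the largest cluster. The annotated TSS was the first coding base for 147 of the 240 genes (61.3%), so their true start may lie upstream and distances of a few kb are uncertain by that much.

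**Figure D3:**
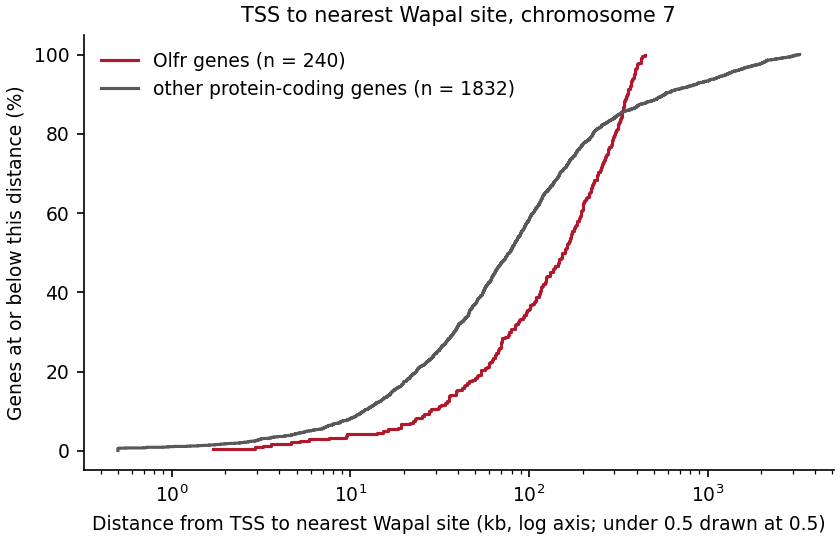
Cumulative share of genes (%, y axis) by distance from the TSS to the nearest Wapal site (kb, log axis) for the 240 Olfr genes and the 1832 other protein-coding genes of chromosome 7. The Olfr curve lies to the right over most of its length, with medians of 156.2 and 77.9 kb, and ends at 446.8 kb, whereas other genes reach 3275 kb.

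The median distance varied from cluster to cluster. It was 42.4 kb over the 8 genes that begin with Olfr1344, 146.1 kb over the 40 that begin with Olfr467, 158.8 kb over the 25 that begin with Olfr693 and 160.4 kb over the 129 of the largest cluster. It was 191.9 kb over the 15 genes that begin with Olfr310 and 231.4 kb over the 19 that begin with Olfr522. Clusters without a site inside stood at both ends of this order, since that of Olfr1344 had none and neither did those of Olfr310 and Olfr522.

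Olfr genes stood in long intervals between neighbouring sites. All 240 Olfr TSSs fell into 15 of the 470 intervals of the chromosome. Counted once per TSS, the interval around an Olfr TSS had a median length of 754.3 kb (quartiles 502.1 and 874.7 kb). Around other protein-coding TSSs it was 370.3 kb (199.7 and 867.1 kb). Over the 470 intervals, each counted once, the median was 162.3 kb. A count per TSS gives more weight to intervals with many genes, so that last value is not a like comparison. The 12 longest intervals of the chromosome, from 8319 down to 1323 kb, held no Olfr gene. Of the longest, 8319 kb, only 15.9% is sequenced. The intervals of 6651 and 4396 kb, which are 95.5% and 97.7% sequenced, held 84 and 110 other protein-coding genes. The very longest intervals without a site were therefore not those of Olfr genes.

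Within the largest cluster the 5 sites cut the array into 6 stretches. From Olfr543 to Olfr571 there were 25 Olfr genes in 443 kb, with Trim21 and Trim68, 2 genes of tripartite motif proteins. From Olfr572 to Olfr585 there were 11 genes in 199.8 kb. From Olfr586 to Olfr632 there were 44 in 823.4 kb, the longest stretch, which also held the beta-globin genes. From Olfr633 to Olfr649 there were 13 in 257 kb. From Olfr651 to Olfr655 there were only 5 Olfr genes in 403.3 kb, together with 11 annotated gene entries of the Trim family, among which the symbol Trim30b is repeated. These stand around Trim5 and Trim30a, which act in antiviral defence. From Olfr656 to Olfr692 there were 31 in 766.1 kb up to the end of the cluster, and the next site lay 108 kb beyond that end.

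The site near Olfr649 lay next to the border of the Olfr and Trim arrays, with Olfr649 at 4.04 kb on one side and Trim6 at 18.8 kb, and the site near Olfr655 lay beyond the Trim array. Several of the 12 exact CTCF core motifs of this cluster stood among the Trim genes, as the map of the cluster shows, and none was in a site.

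**Figure D4:**
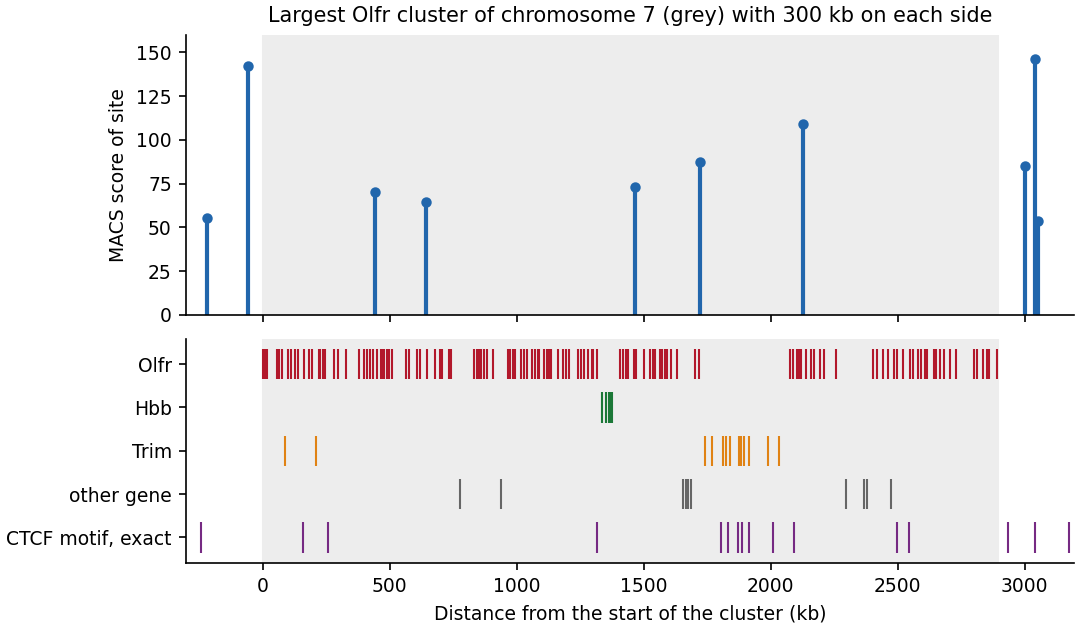
The largest Olfr cluster, by distance from its start (kb, x axis). The upper panel gives the MACS score of each Wapal site, inside the cluster (grey) and up to 300 kb outside. The lower panel gives the TSSs of the protein-coding genes of the cluster by family and the exact matches to the CTCF core motif. The 5 sites inside score 64.6 to 109.3. Counted within the cluster only, the Hbb genes stand in the longest stretch without a site, while the last stretch runs on to a site beyond the end of the cluster.

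The beta-globin genes had no Wapal site among them. Their block is shorter than the median interval between neighbouring sites of the chromosome, 162.3 kb, so the lack of a site is not a result about these genes. Hbb-b2, Hbb-b1, Hbb-bh2, Hbb-bh1 and Hbb-y, the adult and embryonic beta chains of haemoglobin, occupied chr7:110961038-111001754 between Olfr67, 20.7 kb away on one side, and Olfr66, 28.1 kb away on the other. Their nearest site was the one near Olfr633, with a score of 72.7, at 89.4 kb from Hbb-y, 99.4 kb from Hbb-bh1, 102.2 kb from Hbb-bh2, 114.5 kb from Hbb-b1 and 128.6 kb from Hbb-b2.

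Other gene arrays of chromosome 7, grouped by the same rule, were set beside the Olfr clusters. The vomeronasal receptor arrays held few sites, with 0 in 6.22 Mb for Vmn1r (which allows up to 0.482 per Mb at 3 counts) and 2 in 5.22 Mb for Vmn2r (0.383 per Mb, 0.0464 to 1.38). Only 35.2% and 49.2% of their windows of 49 bases were unique, against 81.4% in the Olfr clusters, and the part of this in their counts was not tested. The Mrgpr array, of receptors of sensory neurons, held 1 site in 1.46 Mb (0.686 per Mb, 0.0174 to 3.82). Arrays of enzymes, adhesion proteins and zinc finger proteins lay higher than the 1.24 per Mb of the Olfr clusters, at 3.71 per Mb for Klk (0.449 to 13.4), 5.12 for Ceacam and Psg (2.55 to 9.15) and 6.12 for Zfp (3.997 to 8.965). The GC content was 46.7% for Klk, 43.1% for Ceacam and Psg and 46.5% for Zfp, against 38.3 to 40.3% for the 3 receptor families other than Olfr. A single Scgb gene was found, which makes no array.

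Olfr clusters of other chromosomes were examined by the same rule. Over the other autosomes 866 Olfr genes in 45 clusters held 41 sites in 24.7 Mb, or 1.66 per Mb (1.19 to 2.25), which was 0.480 times the density outside their clusters and edges (0.344 to 0.652). On chromosome 7 the ratio was 0.370. Of 11 other chromosomes with at least 20 Olfr genes, 9 had a lower density inside than on their rest, and the interval of the ratio lay below 1 on 2 of them. These were chromosome 2 with 286 genes (ratio 0.165) and chromosome 9 with 129 genes (ratio 0.198). The ratio was above 1 on chromosome 4 (1.68) and chromosome 14 (1.24). The GC content of these clusters was not analysed here.

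The edges of Olfr clusters on the other autosomes held 61 sites in 9.0 Mb, or 6.78 per Mb, which was 1.96 times the density outside (1.497 to 2.52), beside 2.23 times on chromosome 7. Of the same 11 chromosomes, 10 had a higher density at the edges than on the rest, and the interval of the ratio lay above 1 on 4.

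**Figure D5:**
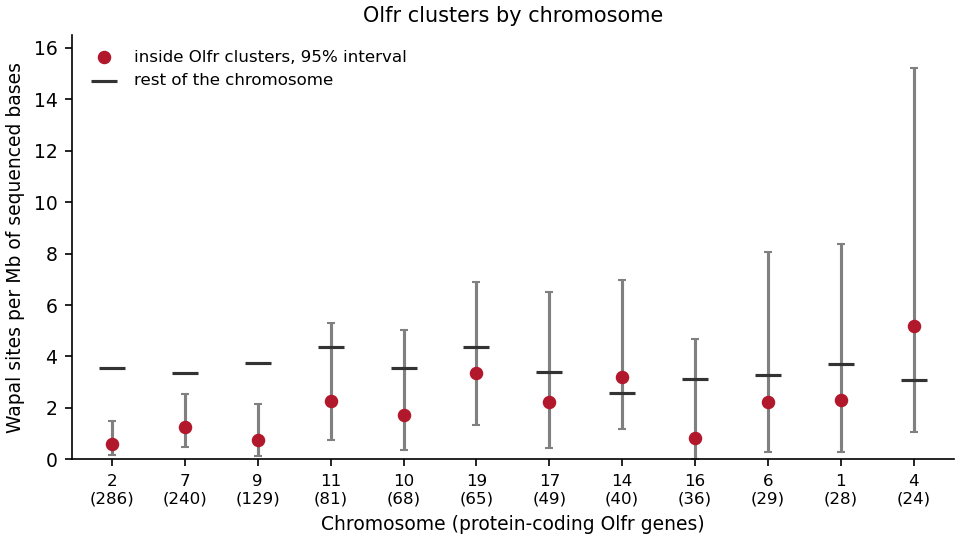
Density of Wapal sites (per Mb of sequenced bases, y axis) inside the Olfr clusters of each chromosome with at least 20 protein-coding Olfr genes (red points, with exact 95% Poisson intervals), beside the density on the rest of the chromosome (bars). Chromosomes are ordered by their number of Olfr genes, given in parentheses. The points lie below the bars except on chromosomes 4 and 14, and the intervals of chromosomes 2, 7 and 9 lie wholly below.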

How the data were processed

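Reads were placed on mm9 by the authors with Bowtie, which was set to report unique alignments, and enriched regions were called relative to input by MACS 1.4.2 at its default threshold. The deposited lists give each region with the authors' MACS score, which is not normalized between lists. How the regions of the 2 clones were joined is not given in the sources used here. Wapal regions sharing at least 1 bp with a BirA region were removed. Genes came from GENCODE M1 and sequences from the NCBIM37 genome, the same build as mm9. Distances run from a TSS to the edge of a site, or from the centre of a site to a TSS. Uniqueness was the share of windows of 49 bases, taken every 5 bases, with a single exact copy in mm9 on either strand. Densities have exact Poisson intervals, ratios exact conditional intervals and shares Wilson intervals. Genes named were the first and last Olfr gene of clusters of at least 5 genes, their bordering genes, Olfr genes within 10 kb of a site, the nearest genes of sites inside and of the 5 highest-scoring edge sites, the 5 farthest Olfr genes and the Hbb genes. Members and lists were chosen with earlier results of these data known. No test over samples was made. The genes that share a stretch with these, such as Trim5 and Trim30a, were named after their values were seen. The tools were scipy 1.17.1, numba 0.67.0, pysam 0.24.0 and numpy 2.4.6 under Python 3.11.15, and the functions were tested on simulated data.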

Additional observations from a re-analysis of the deposited data

How the results depend on the processing

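No paired analysis was possible because the 2 clones share 1 list of sites and no result comes from a test. With a score of at least 100, 1 site remained inside, the densities were 0.177 per Mb inside, 2.50 at the edges and 1.04 on the rest, 2 Olfr genes lay within 10 kb of a site, the median distance from an Olfr TSS to a site was 473.2 kb and 100% of the sites inside held the motif. The share of all genes near a site at that score is not given here, so the count of 2 genes has no background beside it. Linking genes within 1 Mb put 11 sites inside 7 clusters. Per Mb of unique windows the rest had 4.02 sites. Within 2 kb and 50 kb of a site there were 1 and 43 Olfr genes (0.417% and 17.9%), beside 1.59% and 34.8% of all protein-coding genes. The share of sites inside with the motif was 0% for exact matches and 100% for up to 2 mismatches. The ratio of the density inside to that of the rest ranged from 0.171 to 0.890 over 19 alternatives, and its interval lay below 1 for 14 of them. The exceptions, chosen after the data were seen, were the count per motif (0.556, 0.222 to 1.16) and the windows of like GC, at 0.890 as they are and at 0.661 to 0.761 without vomeronasal arrays, per Mb of unique windows or both. Many of the alternatives reuse the same 7 sites inside, so they are not independent of each other. The largest cluster alone, which is not among them, had a ratio of 0.515 (0.166 to 1.21). With 7 sites inside, every value on them is coarse, and no change between the 2 clones could be examined.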
